A study of Arabidopsis thaliana with 20 samples.

Results

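The genes described here encode proteins of the large (60S) subunit of the cytosolic ribosome in Arabidopsis thaliana. A list of 55 such loci from 25 protein families was matched to the probe sets of the array, and a gene was kept where a probe set named it and no other gene. That left 39 genes of 18 families among the 13356 genes with such a probe set. Another 5 loci were named only on 3 probe sets shared between genes, and 11 were not named on the array. Of the 39, 37 had at least 2 of the 20 arrays at or above the median of the whole table and were tested. The other two were AT3G48960, of the L13 family, and AT1G36240, of the L30 family, which stayed below that median on all 20 arrays.

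The cytosolic ribosome is assembled in the nucleolus from ribosomal RNA and many proteins, and the 60S subunit holds the peptidyl transferase centre and the tunnel through which the new chain leaves. In plants nearly every ribosomal protein is encoded by a small family of paralogs, so a ribosome can draw the same protein from different genes. Their transcripts are abundant in dividing plant cells. Family names used here follow the common nomenclature of plant ribosomal proteins and are background, since the annotation at hand gives only locus identifiers for most of these genes.

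The cells were T87, a suspension line of the Columbia accession (Col-0), and their total RNA was hybridised to the Affymetrix ATH1 array. Control cells stayed at 22 °C in constant light, and the others were moved to 4 °C in dimmer light for 6, 12, 24 or 36 h. Cordycepin, a nucleoside that stops RNA synthesis by terminating the chain, was then added to all of them. The 22 °C cells were collected at 0, 0.5, 2 and 4 h of cordycepin and the cold cells at 0, 4, 8 and 12 h, which gives 5 series of 4 arrays. The design text asks about the course of mRNA amount and stability during cold stress.

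Every combination had 1 array, so no condition had replicates, and cold duration runs together with time in culture and with dimmer light, which cannot be told apart. The number of arrays limits the precision. Array medians in the 22 °C series were 64.4, 55.4, 50.8 and 50.3 at 0, 0.5, 2 and 4 h, while the cold arrays had medians from 60.02 to 68.6. Values were normalised between arrays, so every change below is relative to all transcripts measured together, and a general loss of mRNA does not appear in it. In such bulk samples, fewer cells of a type and less RNA per cell cannot be told apart. Of the 4 markers of dividing cells and the 3 seed storage genes chosen to check the cell label, none was named on the array. The root hair marker and both pollen markers were below the filter on low values, and 1 of 3 green plastid markers, AT2G39730, passed it.

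Before cordycepin, the 60S transcripts lay slightly lower in the cold, most of them together. The median log2 difference of the 37 genes from the 22 °C array was −0.03 after 6 h, −0.40 after 12 h, −0.36 after 24 h and −0.14 after 36 h of cold. The corresponding medians over all 6962 genes tested were −0.02, −0.10, −0.11 and −0.08. All 37 genes were lower on the 12 and 24 h arrays than on both the 22 °C and the 6 h arrays, an order seen in 40.4% of all genes. All 37 were also higher on the 36 h array than on the 12 and 24 h arrays, which held for 33.2% of all genes. These are comparisons of single arrays, and genes read on the same array are not independent of each other, so the counts describe those arrays.

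Few of these differences were large. A 1.5-fold lower value was found for 0, 6, 3 and 1 of the 37 genes after 6, 12, 24 and 36 h, where 4.65%, 12.4%, 16.9% and 12.4% of all genes were that much lower. No 60S gene was 1.5-fold higher at any duration, against 6.22%, 14.2%, 16.6% and 13.2% of all genes. In the fit that set the 4 cold arrays against the lone 22 °C array, all 37 estimates were below 0 with a median of −0.25, and the median over all genes was −0.08. None of the 37 was called in either direction at a limma adjusted p under 0.05, where 0.101% of all genes were called higher and 0% lower. Before adjustment, 1 of the 37 had p under 0.05, with a lower level, where 288 of all 6962 genes were lower and 330 higher. That fit takes its error from the scatter of the cold arrays, so a course over cold duration counts against a call. Where the level was taken instead from the intercepts of the lines fitted through all 20 arrays, 36 of the 37 were called lower, against 37.3% of all genes.

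**Figure D1:**
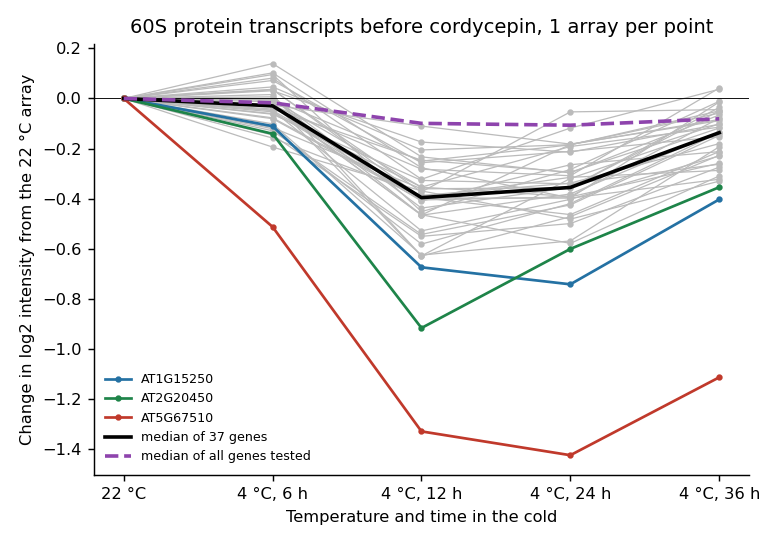
Change in log2 intensity from the 22 °C array on the 5 arrays without cordycepin (y) against temperature and time in the cold (x), with 1 grey line per gene, 3 genes in colour, the median of 37 genes in black and the median of all genes dashed. The black line reaches −0.40 at 12 h and returns to −0.14 at 36 h, and AT5G67510 lies below every other gene at all 4 cold durations.

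The 3 lowest levels belonged to AT5G67510 of the L26 family, AT2G20450 of the L14 family and AT1G15250 of the L37 family. L26 sits near the exit of the peptide tunnel, and L37 is a small zinc-binding protein. AT5G67510 read 11.75 on the 22 °C array and 11.23, 10.42, 10.32 and 10.63 on the 6, 12, 24 and 36 h arrays (log2 intensity), an estimate of −1.10 ± 0.36 (SE; limma adjusted p = 0.53). AT2G20450 read 10.94 at 22 °C and 10.80, 10.02, 10.34 and 10.59 in the cold, an estimate of −0.50 ± 0.31 (adjusted p = 0.60). AT1G15250 read 10.09 at 22 °C and 9.98, 9.42, 9.35 and 9.69 in the cold, an estimate of −0.48 ± 0.28 (adjusted p = 0.59). For all 3 the 22 °C array was the highest of the 5 and the 6 h array the next.

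At the other end were AT2G19740 of the L31 family at −0.08 ± 0.21 (adjusted p = 0.89), AT3G49910 of the L26 family at −0.10 ± 0.15 (adjusted p = 0.81) and AT4G27090 of the L14 family at −0.10 ± 0.14 (adjusted p = 0.78). AT2G19740 read 10.47 at 22 °C and 10.55, 10.14, 10.35 and 10.50 in the cold, so its cold arrays lay on both sides of the 22 °C array. AT3G49910 read 13.38 at 22 °C and 13.43, 13.17, 13.20 and 13.32 in the cold, again on both sides. Across the 37 genes, 25 had all 4 cold arrays below the 22 °C array, a pattern of 30.6% of all genes.

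Paralogs differed in level mainly in the L26 and L14 families. Since probe sets differ in affinity, paralogs were compared only in their changes. In L26 the change from 22 °C was −0.51, −1.33, −1.43 and −1.11 for AT5G67510 at 6, 12, 24 and 36 h, and 0.05, −0.21, −0.18 and −0.06 for AT3G49910. In L14 it was −0.14, −0.92, −0.60 and −0.36 for AT2G20450, and −0.03, −0.11, −0.18 and −0.09 for AT4G27090. In both families the same paralog was the lower one at every duration. The estimates of the level fit spanned 1.00 in L26 and 0.40 in L14, followed by 0.23 in L34, 0.21 in L22 and 0.19 in L27. The narrowest spans among the 14 families with at least 2 tested genes were 0.0021 in L28, 0.033 in L4 and 0.036 in L15. These spans carry no test.

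At 22 °C the relative signal of most 60S transcripts moved little through 4 h of cordycepin, and a few fell steeply. By mean log2 intensity over the 20 arrays, 35 of the 37 were among the brightest 10% of genes tested. AT5G67510, AT1G15250 and AT2G32220, which fell most, were at brightness percentiles 94.97, 88.26 and 57.34, and the median of the 37 was 98.82. AT2G19740, at 94.7, had the highest slope. Whether changes are compressed at such intensities was not tested, so little movement need not mean a stable transcript. The same limit holds for the levels above. The median change of the 37 genes from 0 h was 0.12 at 0.5 h, 0.10 at 2 h and −0.06 at 4 h, where all genes had medians of 0.06, −0.10 and −0.21. All 3 cordycepin arrays lay above the 0 h array for 17 of the 37 and below it for 5, against 35% and 38.6% of all genes. The median slope was −0.024 log2 units per hour for the 37 genes and −0.052 for all genes tested. Of the 37, 8 fell and 0 rose (limma, adjusted p under 0.05), where 38.5% of all genes fell and 23.6% rose. The 4 h array decided 5 of these 8 calls: without it only AT5G67510, AT1G15250 and AT2G32220 were called, and without the 0 h array of the series 13 were. With the 95th percentile slope of each series taken as no decay, called anchored slopes here, the median over all genes moved to −0.33 and all 37 were called lower, as were 85.5% of all genes. This zero point puts 95% of all genes below 0 in each series by definition.

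AT5G67510 fell the most. Its log2 intensity was 11.75, 11.47, 10.72 and 10.11 at 0, 0.5, 2 and 4 h, a slope of −0.41 ± 0.037 per hour (SE; limma adjusted p = 1.1e-06). Each later array was lower than the one before it.

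AT1G15250 was next, with 10.09, 10.03, 9.46 and 8.88 and a slope of −0.31 ± 0.031 (adjusted p = 2.2e-06). The third was AT2G32220, an L27 gene whose probe set was the dimmest of the 37, with 7.95, 7.86, 7.43 and 7.26 and a slope of −0.18 ± 0.043 (adjusted p = 0.0028). Both declined at each step of the series, with most of the change after 0.5 h.

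The other five slopes called lower were shallower. AT4G29410, of the L28 family, which budding yeast lacks, read 11.60, 11.81, 11.61 and 11.24, a slope of −0.11 ± 0.029 (adjusted p = 0.0042). Of its cordycepin arrays, only that at 4 h lay below the 0 h array. AT5G22440, a gene for L10a, the protein of the mobile L1 stalk, had a slope of −0.076 ± 0.023 (adjusted p = 0.011). AT5G02870, for L4, which lines the narrow part of the exit tunnel, had −0.060 ± 0.019 (adjusted p = 0.012). The L15 genes AT4G16720 and AT4G17390 had −0.056 ± 0.017 (adjusted p = 0.010) and −0.053 ± 0.018 (adjusted p = 0.017). At the upper end AT2G19740 had 0.045 ± 0.035, AT1G08360 of the L10a family 0.030 ± 0.021 and AT5G27770 of the L22 family 0.024 ± 0.028, none of them called, and all 3 estimates were below 0 when the 0 h arrays were left out or the slopes were anchored.

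**Figure D2:**
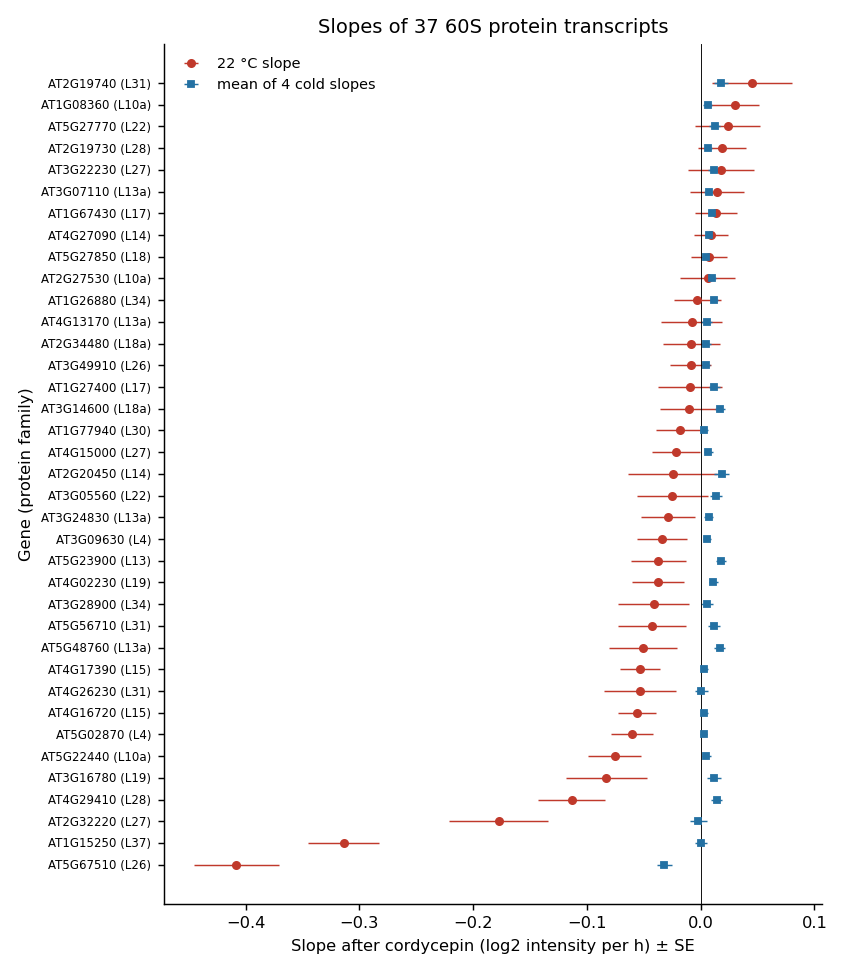
Slope of log2 intensity per hour of cordycepin with its SE (x) for each of the 37 genes, ordered by the 22 °C slope (y), at 22 °C (red circles) and as the mean of the 4 cold series (blue squares). AT5G67510, AT1G15250 and AT2G32220 stand apart at 22 °C with −0.41, −0.31 and −0.18, while the cold means lie between −0.032 and 0.018. With the 95th percentile slope of each series taken as no decay, all 37 genes lay below 0 in both. That zero point puts 95% of all genes below 0 in each series by definition.

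In the cold the course of the 60S transcripts after cordycepin differed between series. After 6 h of cold the median change from 0 h was −0.07, −0.04 and −0.23 at 4, 8 and 12 h of cordycepin, and 29 of the 37 genes had all 3 cordycepin arrays below the 0 h array, as did 36.1% of all genes. In 1 gene all 3 were above it, against 28.3% of all genes. Of the 37, 1 fell, AT5G67510 with −0.064 ± 0.013 per hour (adjusted p = 0.012), and none rose, against 3.61% and 4.55% of all genes. Before adjustment 17 of the 37 had a negative slope with p under 0.05 and 0 a positive one, against 929 and 911 of all 6962 genes. That call was lost without the 0 h or the 12 h array of the series, and 6 genes were called without the 22 °C array at 0 h.

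After 12 h of cold the course ran the other way. The median change was 0.25, 0.27 and 0.44 at 4, 8 and 12 h of cordycepin, and all 37 genes had all 3 cordycepin arrays above the 0 h array, a pattern of 43.2% of all genes. Of the 37, 24 rose and 0 fell (limma), against 11.3% and 7.24% of all genes, with a median slope of 0.034 per hour. Under the anchored zero point none rose, 20 were called lower, where 66.1% of all genes were, and 35 of the 37 slopes were below 0. The calls depended on the array that was low before cordycepin. Without the 0 h array of this series 0 of the 37 were called, as were 0% of all genes in either direction. The median slope was then 0.021, against 0.0058 for all genes, and 35 of 37 slopes remained above 0. Without the 12 h array of this series 0 of the 37 were called as well, and the share of all genes was not computed for that fit. That same 0 h array carries the lowest median of the level comparison, so both results share it. At 12 h of cordycepin the median of the 37 genes was 0.03 above the untreated 22 °C array.

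The slopes of the 12 h and 6 h series differed for 28 of the 37 genes, in each case with the higher slope at 12 h (limma contrast, chosen after the opposite signs were seen), where 6.12% of all genes were called higher and 4.31% lower. That count fell to 0 without the 0 h array of the 12 h series, where 0% of all genes were called higher and 0.0144% lower. All 37 differences then stayed above 0, with a median of 0.038. The count was also 0 without the 12 h array of the 6 h series.

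The steepest rise in the 12 h series was that of AT2G20450, which read 10.02, 10.56, 10.68 and 10.93 (0.071 ± 0.014 per hour; adjusted p = 0.0071). AT5G48760, an L13a gene, followed with 10.43, 10.86, 10.99 and 11.13 (0.056 ± 0.010; adjusted p = 0.0068). In human cells L13a also takes part in a complex that silences messenger RNAs after interferon. AT5G67510 was among the 13 genes not called there, with 10.42, 10.73, 10.57 and 10.61 (0.011 ± 0.013; adjusted p = 0.58). The first 2 genes increased at every step, whereas the last was highest at 4 h.

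After 24 and 36 h of cold no 60S gene was called in either direction. Of all genes, 0.129% rose and 1.09% fell at 24 h, while 0.0144% rose and 0.244% fell at 36 h. Before adjustment, 4 of the 37 had a positive and 1 a negative slope with p under 0.05 at 24 h, and 1 and 1 at 36 h. Of all 6962 genes, 601 had a positive and 701 a negative slope at that threshold at 24 h, and 734 and 545 at 36 h. The median slopes of the 37 genes were 0.011 and 0.0047. At 24 h of cold 26 of the 37 had all 3 cordycepin arrays above the 0 h array and 1 had all below, against 40.9% and 22.3% of all genes. At 36 h of cold the counts were 6 and 8, against 27.2% and 26.2%, while 29 of the 37 fitted slopes were above 0 and 8 below, as were 3899 and 3063 of all 6962 genes. AT5G67510 had the lowest slope in both, −0.035 ± 0.013 (adjusted p = 0.19) and −0.040 ± 0.013 (adjusted p = 0.14). It read 10.32, 10.17, 10.24 and 9.83 at 24 h of cold and 10.63, 10.44, 10.12 and 10.20 at 36 h of cold, with its lowest values at 12 and 8 h of cordycepin.

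**Figure D3:**
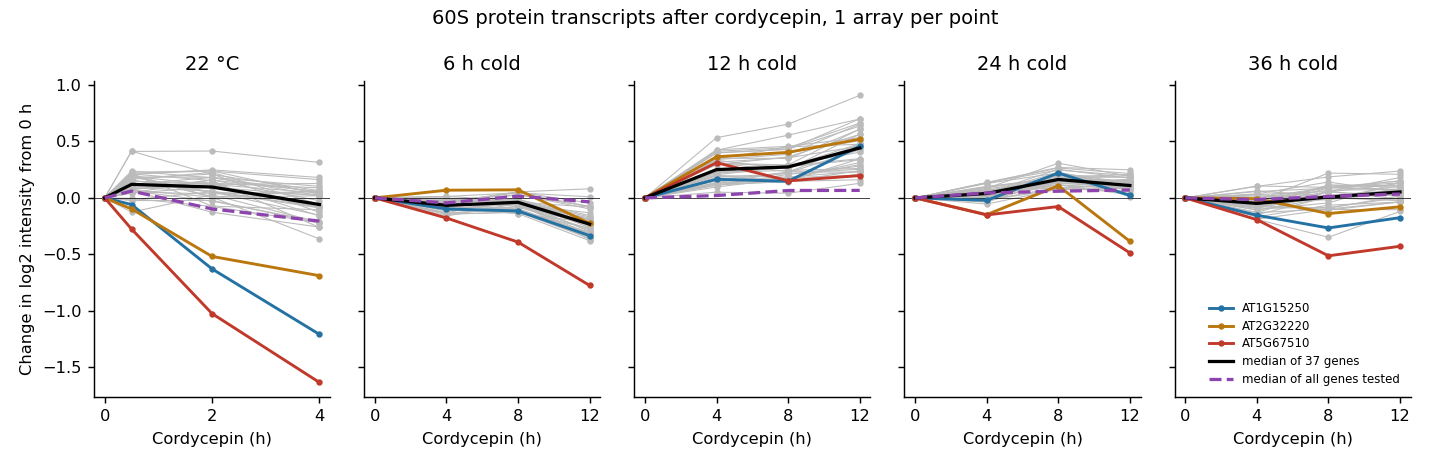
Change in log2 intensity from the 0 h array of the same series (y) against hours of cordycepin (x, up to 4 h at 22 °C and 12 h in the cold) in the 5 series, with 1 grey line per gene, 3 genes in colour, the median of 37 genes in black and the median of all genes dashed. The black line ends at −0.06, −0.23, 0.44, 0.11 and 0.05 from left to right, relative to all transcripts measured. With the 95th percentile slope taken as no decay, 35 of the 37 slopes in the 12 h series were below 0. That zero point puts 95% of all genes below 0 by definition.

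Over the 4 cold series together, 10 of the 37 mean slopes were called higher than 0 and 1 lower, where 21.6% and 16.2% of all genes were, and anchored slopes turned this to 0 higher and 37 lower, with 92.9% of all genes called lower. The median was 0.0070 per hour against 0.0047 for all genes. The 3 most positive estimates were those of AT2G20450 (0.018 ± 0.0068; adjusted p = 0.046), AT2G19740 (0.018 ± 0.0061; adjusted p = 0.031) and AT5G23900 of the L13 family (0.018 ± 0.0042; adjusted p = 0.0063), all of them below 0 with anchored slopes. AT2G20450 was not called without the filter (adjusted p = 0.061), without the eBayes trend (adjusted p = 0.067) or without the 0 h arrays (adjusted p = 0.17), nor was AT5G23900 without the 0 h arrays (adjusted p = 0.10). AT5G67510 was the gene called lower, with −0.032 ± 0.0065 (adjusted p = 0.0031). AT2G32220 had −0.0021 ± 0.0076 (adjusted p = 0.84), and AT1G15250 had 3.35e-05 ± 0.0054 (adjusted p = 1.00), so neither was called. Without single arrays the number called higher ran from 1 (without the 0 h array at 24 h of cold) to 14 (without that at 22 °C), and the removal of 13 of the 16 cold arrays took it to 6 or fewer, every array of the 6 h and 36 h series among them.

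The mean cold slope was less negative than the 22 °C slope for 9 of the 37 genes and more negative for 0 (limma contrast, adjusted p under 0.05), where 37% of all genes were called in the first direction and 21.5% in the second. The median difference was 0.036 per hour, and that of all genes 0.051. Without the 22 °C array at 4 h the median of the 37 genes was −0.026, on the other side of 0, and without the 22 °C array at 0 h it was 0.059. AT5G67510 differed by 0.38 ± 0.038 (adjusted p = 2.9e-06), AT1G15250 by 0.31 ± 0.031 (adjusted p = 2.7e-06) and AT2G32220 by 0.18 ± 0.044 (adjusted p = 0.0036). These were also the 3 genes that were still called when the 22 °C array at 4 h was left out, and AT2G32220 was not called without the 0 h arrays (0.15; adjusted p = 0.053). With anchored slopes all 37 were called, with 79.6% of all genes. Set against 22 °C one cold series at a time, 4, 14, 9 and 8 of the 37 were called higher at 6, 12, 24 and 36 h of cold, where 35.8%, 36.7%, 35.9% and 36% of all genes were. None was called lower in any of them, where 21.1%, 20.9%, 20.5% and 20.4% of all genes were. These 4 contrasts share the 22 °C series.

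The remaining ones were AT4G29410 (0.13 ± 0.030; adjusted p = 0.0023), AT3G16780 of the L19 family (0.095 ± 0.036; adjusted p = 0.034), AT5G22440 (0.081 ± 0.024; adjusted p = 0.0094), AT5G02870 (0.063 ± 0.019; adjusted p = 0.011), AT4G16720 (0.059 ± 0.017; adjusted p = 0.0085) and AT4G17390 (0.056 ± 0.018; adjusted p = 0.015). L19, like L26 and L31, lies around the exit of the peptide tunnel. AT3G16780 read 11.24, 11.45, 11.39 and 10.97 at 22 °C. In the cold it read 11.22, 11.06, 11.17 and 10.85 at 6 h, 10.61, 11.02, 11.05 and 11.27 at 12 h, 10.76, 10.74, 10.95 and 10.91 at 24 h and 11.01, 10.94, 11.01 and 11.07 at 36 h. Its 22 °C slope alone was not called (−0.083 ± 0.035; adjusted p = 0.053).

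The lowest differences, none of them called, were −0.027 ± 0.036 for AT2G19740, −0.024 ± 0.022 for AT1G08360 and −0.012 ± 0.022 for AT2G19730 of the L28 family, and all 3 were above 0 when the 0 h arrays were left out or the slopes were anchored. AT2G19730 and AT2G19740 are neighbours on chromosome 2 in the TAIR10.1 annotation, where 40S protein genes that were not measured here flank them on both sides. Over the matched 4 h of cordycepin, the change in the cold minus that at 22 °C had a median of 0.08 over the 37 genes and 0.21 over all genes, and it ran from −0.24 to 1.58 among the 37.

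Paralogs of the same family could differ in this response. The log2 difference between 2 paralogs was taken within each array and fitted with the same lines. This removes any shift that both genes share on an array, so these differences do not depend on the zero point of the slopes. Effects that vary with intensity are not removed and were not tested. In L26, for example, the mean log2 intensity was 13.34 for AT3G49910 and 10.60 for AT5G67510. Among 25 pairs in 14 families, 10 had a 95% interval of the difference in cold minus 22 °C slope that left out 0, and so did 11 for the 22 °C slope and 7 for the mean cold slope. Pairs of other genes were not fitted, so there is no background share to set these counts against. The median absolute difference was 0.044 per hour for cold minus 22 °C. In each pair the gene with the higher cold minus 22 °C estimate was put first, so every such difference lies above 0 by its ordering. The pairs share arrays and, in families of 3 or 4, also genes, and the intervals are not adjusted for the number of pairs.

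The widest difference was in L26, where AT5G67510 exceeded AT3G49910 by 0.36 per hour (95% interval 0.28 to 0.44) in cold minus 22 °C slope. AT3G49910 read 13.38, 13.54, 13.43 and 13.41 at 22 °C, within 0.2 of its start, while AT5G67510 went from 11.75 to 10.11. The difference of their 22 °C slopes was −0.40 (−0.48 to −0.32) and that of their mean cold slopes −0.037 (−0.050 to −0.023). AT5G67510 thus had the lower slope of the pair in both temperatures, and the gap was wider at 22 °C.

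**Figure D4:**
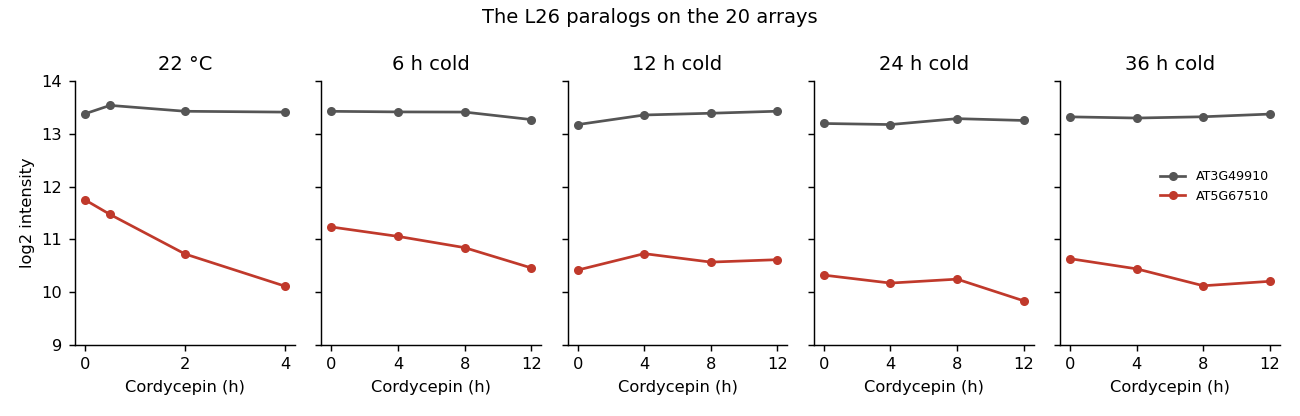
Log2 intensity (y) of the L26 paralogs AT5G67510 (red) and AT3G49910 (grey) against hours of cordycepin (x) in the 5 series, 1 array per point. AT3G49910 stays between 13.17 and 13.54 on all 20 arrays, and AT5G67510 runs from 11.75 down to 9.83; the height of the lines is not comparable between probe sets, only their course.

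In L27, AT2G32220 exceeded AT3G22230 by 0.18 (0.093 to 0.27; without the 0 h arrays 0.13, with an interval that included 0) and AT4G15000 by 0.15 (0.059 to 0.23), and the latter exceeded AT3G22230 by 0.035 (0.0037 to 0.066). AT3G22230 read 11.62, 11.74, 11.80 and 11.72 at 22 °C, and AT4G15000 12.76, 12.80, 12.86 and 12.68. Neither of them showed the stepwise decline of AT2G32220. In the cold, AT2G32220 read 7.89, 7.96, 7.96 and 7.67 at 6 h, 7.60, 7.96, 8.00 and 8.12 at 12 h, 7.76, 7.61, 7.87 and 7.38 at 24 h and 7.84, 7.83, 7.70 and 7.76 at 36 h.

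In L28, AT4G29410 exceeded AT2G19730 by 0.14 (0.097 to 0.18), and without the 22 °C array at 4 h by 0.078 with an interval that included 0. AT2G19730 read 12.85 at 22 °C before cordycepin and at least 12.97 after it, above the 0 h array at each time. This was the family with the narrowest span in level and the third widest in slope difference.

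In L10a, AT5G22440 exceeded AT1G08360 by 0.10 (0.052 to 0.16) and AT2G27530 by 0.077 (0.044 to 0.11), and the interval of the third pair, 0.027 (−0.017 to 0.071), included 0. AT5G22440 read 12.74, 12.80, 12.61 and 12.48 at 22 °C. AT1G08360 read 12.35, 12.56, 12.60 and 12.53, and AT2G27530 12.28, 12.36, 12.40 and 12.33. The 4 h array was thus the lowest of its series for AT5G22440 alone.

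In L31, AT5G56710 exceeded AT2G19740 by 0.081 (0.028 to 0.14), an interval that included 0 without the 22 °C array at 0 h or at 4 h, while AT4G26230 exceeded AT2G19740 by 0.081 with an interval from −2.6e-07 to 0.16 that just included 0. AT5G56710 and AT4G26230 differed by 0.00011 (−0.077 to 0.077). In L13a, whose 4 genes gave 6 pairs, AT5G48760 and AT3G24830 exceeded AT3G07110 by 0.075 (0.035 to 0.11) and 0.043 (0.0070 to 0.079), and the other four intervals included 0. AT3G07110 read 12.21, 12.26, 12.37 and 12.27 at 22 °C, all of its cordycepin arrays being above the 0 h array.

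In the other eight families the interval of every pair included 0. The narrowest differences were 0.0031 (−0.031 to 0.037) in L15, 0.014 (−0.027 to 0.055) in L18a and 0.023 (−0.019 to 0.065) in L4. All of these intervals are for cold minus 22 °C slope. In mean cold slope the L18a gene AT3G14600 exceeded AT2G34480 by 0.012 (0.0050 to 0.019). The L15 genes read 13.04, 13.03, 12.96 and 12.82 (AT4G16720) and 13.39, 13.36, 13.36 and 13.16 (AT4G17390) at 22 °C, with both lowest at 4 h. L22, an RNA-binding protein that binds a viral RNA in human cells, had a difference of 0.050 with an interval from −0.00049 to 0.10, and L19 one of 0.047 from −0.0037 to 0.097. L14, whose genes stood apart in level, had a difference of 0.044 with the wide interval from −0.040 to 0.13. L34 gave 0.032 (−0.012 to 0.075) and L17, a protein that lines the exit tunnel, 0.025 (−0.015 to 0.065). Such intervals do not show that the paralogs act alike. L18 and L37 had a single measured gene each, AT5G27850 and AT1G15250, and L13 and L30 a single tested one, AT5G23900 and AT1G77940. L30 is known in budding yeast for repressing the splicing of its own transcript, and AT1G77940 read 12.54, 12.73, 12.54 and 12.56 at 22 °C, with no call in cold minus 22 °C slope (0.021 ± 0.021; adjusted p = 0.42). AT5G27850 read 12.95, 13.02, 12.96 and 13.01 (−0.0024 ± 0.016; adjusted p = 0.90).

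**Figure D5:**
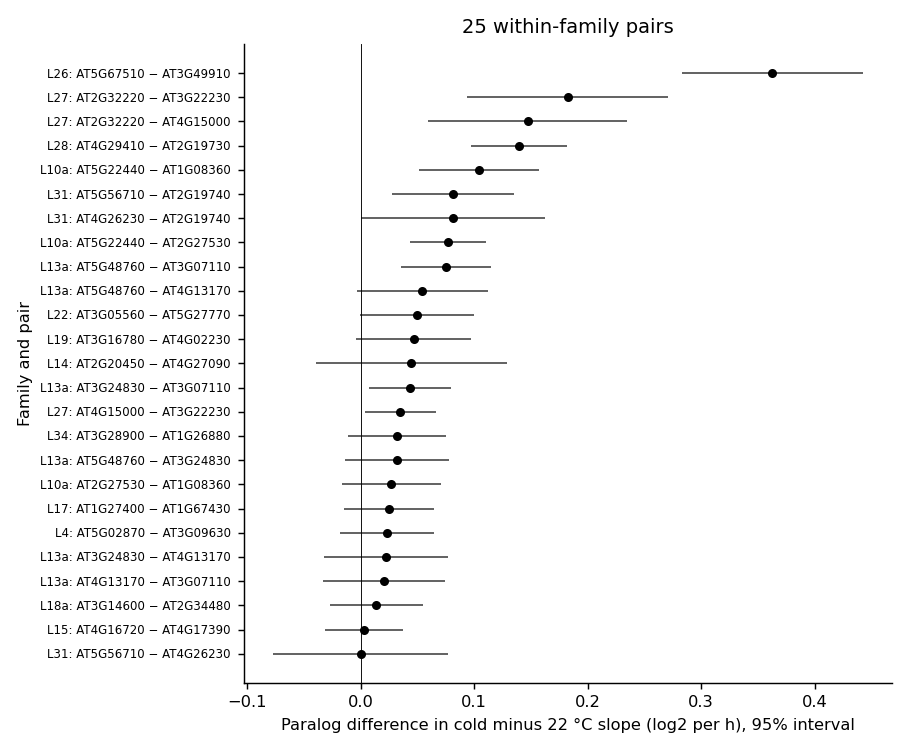
Difference between paralogs in mean cold minus 22 °C slope, in log2 units per hour of cordycepin (x), for the 25 pairs within families (y), with points for estimates and bars for 95% intervals from the scatter about the lines. The gene with the higher estimate is put first in each pair, so all points lie above 0 by their ordering. The L26 pair stands at 0.36, the bars of 10 pairs leave out 0, and the L15 pair lies at 0.0031. Pairs of other genes were not fitted for comparison.

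Other genes of the translation apparatus were set beside the 60S list, with no test between lists. Of 43 tested 40S protein genes, 0 were called in level, with a median of −0.26. At 22 °C 6 of them rose and 5 fell with a median slope of 0.018 per hour, where 23.6% and 38.5% of all genes did. Anchored slopes gave 0 and 42 with a median of −0.26, against 1.05% and 85.5% of all genes. On the 12 h cold array the 40S median was −0.42. In the 12 h series 32 of 43 rose at a median slope of 0.032, where 11.3% of all genes rose. Anchored slopes gave 1 higher and 25 lower, against 0.259% and 66.1% of all genes. Without the 0 h array of that series 0 of 43 were called, as were 0% of all genes, and the median slope was 0.022. AT3G57490 had the lowest 40S slope at 22 °C, −0.49 ± 0.061 (adjusted p = 1.4e-05), and AT2G16360 the highest, 0.22 ± 0.048 (adjusted p = 0.0011).

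The 13 tested proteins of the P-stalk, the acidic arm of the 60S subunit that recruits elongation factors, had 6 slopes called higher and 0 lower at 22 °C, with a median of 0.043, and 0 higher and 10 lower when anchored (median −0.23). The shares of all genes at 22 °C were 23.6% higher and 38.5% lower, and 1.05% and 85.5% when anchored. The highest P-stalk slope was that of AT3G28500 with 0.34 ± 0.045 (adjusted p = 3.0e-05). The cold minus 22 °C slopes of the P-stalk genes had 0 called higher and 5 lower. The 37 genes above had 9 and 0, and of all genes 37% and 21.5% were called. Anchoring turned the P-stalk count to 10 and 0, against 79.6% and 1.42% of all genes. Of 13 tested ribosome biogenesis factors, 2 rose and 8 fell at 22 °C with a median of −0.20, and 8 and 2 were called higher and lower in cold minus 22 °C slope with a median of 0.21. Anchored slopes left 0 and 12 of them at 22 °C and 12 and 0 in the difference. The shares of all genes given for the P-stalk genes apply to these counts too. The WD-repeat gene PCN (AT4G07410) had −0.43 ± 0.062 at 22 °C (adjusted p = 5.4e-05). By their medians at 22 °C, the biogenesis factors came lowest, then the 60S genes, the 40S genes and the P-stalk genes, an order also found without the 4 h array.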

How the data were processed

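The authors deposited a linear intensity for each probe set, summarised with RMA in the affy package per the submitters' processing notes, with versions not given in the sources used here. Log2 was taken of the deposited intensity. Of 22810 probe sets, 13513 (59.2%) had 1 gene in the platform annotation, 503 had several and 8794 had none named. Entrez identifiers linked 13436 of the 13513 to TAIR10.1 and left 77 unmatched. Each gene was represented by its brightest probe set. A gene was tested if at least 2 of 20 arrays reached the table median, 61.39, which left 6962 genes. Cross-hybridisation between paralogs was not tested. Cold for 6 h is in the titles and design, not in the growth protocol.

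Fits used limma 3.58.1 (R 4.3.3; lmFit, eBayes with trend). Levels were fitted on the 5 arrays at 0 h, with 3 residual degrees of freedom. Slopes were fitted on all 20 arrays as 1 intercept and 1 slope per series, with 10. Their errors are the scatter about the lines, not the spread between cultures. Tests were two-sided, adjusted by Benjamini-Hochberg over all 6962 genes, at 0.05. Paralog differences were fitted by least squares with 95% intervals and no p. The fits were also run on simulated data with independent normal errors about straight lines. Those data hold no effect shared by the genes of an array, so they do not bear on such effects. Alternatives were no filter, eBayes without trend, centring on 5 reference genes, anchored slopes, intercepts, no 0 h arrays and each array left out. The 12 h minus 6 h contrast and the counts per cold series were added after seeing the data. Members and lists were chosen with earlier results of these data known. Genes named in full are the 3 highest and 3 lowest estimates per comparison, families with the widest and narrowest spans, and AT5G67510 and AT1G15250. The genes given as examples within single cold series, and the other genes called, were named after their values were seen. Python 3.11.15, numpy 2.4.6, pandas 2.3.3 and matplotlib 3.10.9 made tables and plots.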

Additional observations from a re-analysis of the deposited data

Results flagged for a closer look

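The 6 h and 12 h cold series differed in their slopes after cordycepin. For 28 of the 37 60S genes the slope in the 12 h series was called different from that in the 6 h series (limma contrast, chosen after the opposite signs were seen), always higher at 12 h, where 6.12% of all genes were called higher and 4.31% lower. The 3 with the smallest adjusted p were AT5G48760 (0.0855 ± 0.015 per hour; adjusted p = 0.0060), AT2G34480 (0.0679 ± 0.012; adjusted p = 0.0067) and AT4G29410 (0.0766 ± 0.014; adjusted p = 0.0073). AT2G34480, an L18a gene, read 12.51, 12.48, 12.40 and 12.15 after 6 h of cold, against 12.10, 12.46, 12.50 and 12.61 after 12 h of cold, so its order over cordycepin time ran in opposite directions. The count was 0 without the 12 h series' 0 h array or without the 6 h series' 12 h array, 2 without the 6 h series' 0 h array and 7 without the 12 h series' 12 h array. In the first of these fits 0% of all genes were called higher and 0.0144% lower, and all 37 differences were above 0.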

How the results depend on the processing

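The 0 h arrays, the zero point of the slopes and single arrays moved many counts of called 60S genes, while the paralog differences in L26 (AT5G67510 with AT3G49910) and L10a (AT5G22440 with AT1G08360) kept their direction and an interval without 0 under the alternatives run. Taking levels from intercepts gave 36 lower in place of 0. With no filter, 2 rose at 22 °C in place of 0 and 1 was lower in cold minus 22 °C slope. They are the dim genes AT1G36240 (22 °C slope 0.31 ± 0.073) and AT3G48960 (0.094 ± 0.034). Without the eBayes trend, calls were 5 lower at 22 °C, 4 higher in the cold mean, 5 higher in cold minus 22 °C and 18 for 12 h minus 6 h. With centring on reference genes these counts were 4, 31, 7 and 15, against 35.2%, 39.3%, 35.4% and 3.55% of all genes. The median cold mean over all genes then moved from 0.0047 to 0.014. Shares of all genes were not computed for the fit without the trend. Anchored slopes gave 37 lower at 22 °C, 0 higher and 37 lower in the cold mean, 37 higher in cold minus 22 °C, 0 higher and 20 lower at 12 h, and 37 lower at 6 h. Of all genes, 85.5% were then lower at 22 °C, 92.9% lower in the cold mean and 79.6% higher in cold minus 22 °C. At 12 h 66.1% and at 6 h 77.2% of all genes were lower. Without the 0 h arrays, 13 were lower at 22 °C, 1 higher in the cold mean, 0 higher at 12 h, 0 lower at 6 h and 0 higher for 12 h minus 6 h. The shares of all genes were 32.1%, 14.7%, 0.402%, 1.38% and 0% in that order. Without those arrays the intervals of the pairs AT2G32220 with AT3G22230 (0.132) and AT5G56710 with AT2G19740 (0.0548) included 0.

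Signs turned as follows, with anchored slopes and then without 0 h arrays. At 22 °C these were AT5G27770 (−0.253, −0.0170), AT1G08360 (−0.246, −0.0092) and AT2G19740 (−0.231, −0.029). In cold minus 22 °C slope they were AT2G19740 (0.202, 0.0475), AT1G08360 (0.205, 0.0154) and AT2G19730 (0.217, 0.0111). In the cold mean, anchoring gave AT1G15250 −0.0474, AT5G23900 −0.0295, AT2G19740 −0.0292 and AT2G20450 −0.0290, and reference centring gave AT2G32220 0.0068. The causes were not tested, except that anchoring shifts every slope of a series alike. Of 132 alternatives for single genes, 109 kept sign and call, 5 lost the call, 1 gained it and 17 changed sign.

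Leaving out each array in turn gave 3 to 13 lower at 22 °C, 1 to 14 higher in the cold mean, 3 to 13 higher in cold minus 22 °C, 0 to 28 higher at 12 h, 0 to 6 lower at 6 h and 0 to 30 for 12 h minus 6 h. Shares of all genes were computed only without the 0 h array at 12 h of cold, where 0% rose in the 12 h series. Paralog differences ran from 0.312 to 0.474 in L26, 0.144 to 0.330 in L27, 0.0781 to 0.167 in L28, 0.0801 to 0.179 in L10a and 0.0539 to 0.104 in L31. Slopes at 22 °C ran from −0.017 to 0.0946 for AT5G27770, −0.0092 to 0.102 for AT1G08360 and −0.029 to 0.160 for AT2G19740. Cold minus 22 °C slopes ran from −0.142 to 0.0474 for AT2G19740, −0.0957 to 0.0154 for AT1G08360 and −0.0352 to 0.0119 for AT2G19730. Cold means ran from −0.0072 to 0.0068 for AT2G32220 and −0.0043 to 0.0050 for AT1G15250. The median 22 °C slope of the 37 genes ran from −0.051 to 0.037, the highest without the 4 h array. No paired analysis was possible because every condition had 1 array.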
